A study of Rattus norvegicus with 6 samples.

Results

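The 9 genes described here belong to the cell's response to high osmolarity and to the polyol pathway of glucose: the transcription factor Nfat5, the osmolyte transporters Slc6a6, Slc6a12 and Slc38a2, the water channel Aqp1, the chaperone Hspa4l, the kinase Sgk1, and the enzymes Akr1b1 and Sord. They were taken by gene symbol from the 16551 genes of the mRNA table, and all 9 were measured. RNA of primary rat cells from the dorsal root ganglia, the sensory ganglia beside the spinal cord (levels L5 to S3 per the labels), was sequenced after 48 h in 1 of 2 media. The control group (3 samples) was in DMEM, and the group labelled DM (3 samples) was taken to be the one in high-glucose medium at 45 mmol/L. The glucose level of the control medium is not given in the sources used here, and none of the 6 samples tested raised osmolarity without glucose. The labels speak of 3 duplicates per group without naming separate cultures or animals, so the p-values speak of the scatter among these 6 samples, which could be technical.

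When the fluid around a cell becomes more concentrated, water leaves the cell, and the cell answers by raising its content of small organic solutes that do not disturb proteins. NFAT5, also called TonEBP, is the transcription factor best known for this answer: it binds the tonicity-responsive enhancer, TonE, and switches on transporters that import taurine, betaine and myo-inositol, the enzyme aldose reductase, and chaperones. Aldose reductase (Akr1b1) turns glucose into sorbitol, itself an osmolyte, and sorbitol dehydrogenase (Sord) turns sorbitol into fructose. This 2-step polyol pathway takes up more glucose when glucose is high and has long been studied in diabetic nerve, where sorbitol and fructose build up.

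Of the 9 genes, 8 were higher in high glucose, 0 were lower (0 also at an unadjusted p under 0.05), and Sgk1 did not pass the test. The test was limma's moderated linear model on the log2 values, with Benjamini-Hochberg adjustment over all 16551 genes and a threshold of 0.05. By the same test 24.9% of all genes were higher and 25.5% were lower. The 9 genes were chosen with earlier results of these data known, so the contrast with all genes is a description. The 3 high-glucose samples lay wholly above the 3 controls in 8 of the 9 genes, as they did in 28.7% of all genes. The median log2 fold change, high glucose minus control, was 0.54 over the 9 genes and 0.01 over all genes. The rises were of unequal size, from 1.19-fold for Slc6a6 to 2.93-fold for Aqp1 among the 7 well covered genes, with Slc6a12, which had few reads, above them. The depth was 28780612 to 33108451 reads per sample. Levels are given as CPM, the usual read count of a gene scaled to the size of its library. They are not corrected for transcript length, so levels of different genes are not compared.

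**Figure D1:**
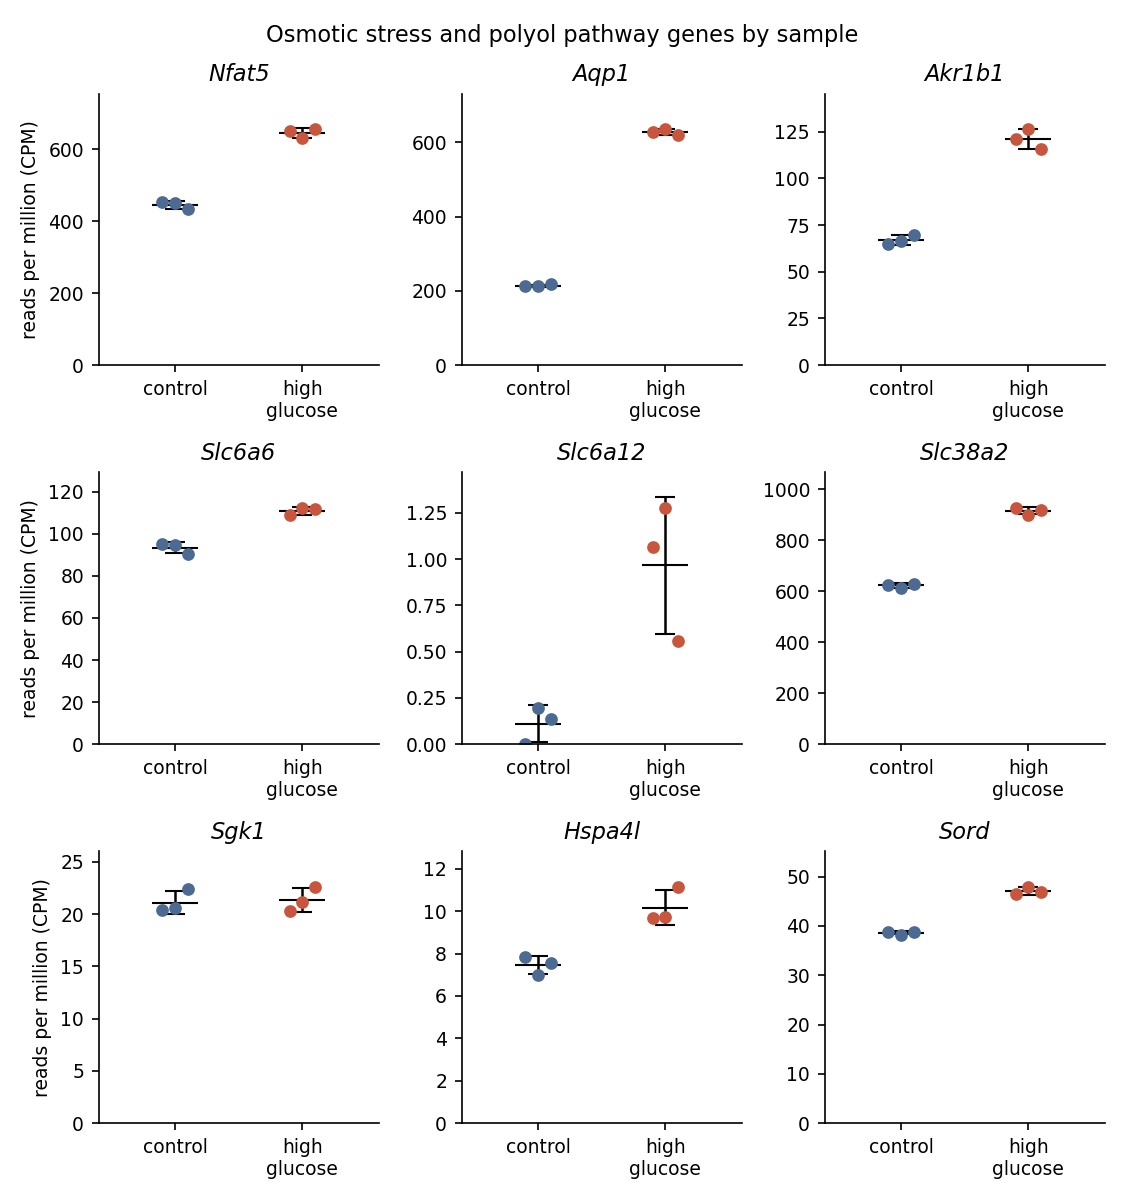
CPM of each of the 9 genes (y axis, from 0, a scale of its own in each panel) in the 3 control and 3 high-glucose samples (x axis). Points are samples, the long bar is the mean and the short bars mark 1 SD either side. The groups are apart in every panel but that of Sgk1, where control spans 20.4 to 22.4 CPM and high glucose 20.3 to 22.6 CPM.

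Nfat5 (ENSRNOG00000011879), the regulator itself, had 452.2, 448.8 and 432.6 CPM in control and 649.7, 629.7 and 655.7 CPM in high glucose. Every high-glucose sample was above every control, and the gap between the groups was many times the spread within either. The means were 444.5 ± 10.5 and 645.0 ± 13.6 CPM (SD, n = 3 each). This is a rise of 1.45-fold, a log2 fold change of 0.54 ± 0.02 (SE, as for all fold changes that follow; adjusted p = 2.82e-10). The fold change lay at the 83.8th percentile of all genes. NFAT5 is also controlled through its translation, phosphorylation and entry into the nucleus, none of which was measured here.

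The calcineurin-regulated relatives of Nfat5, which share its DNA-binding domain type but respond to calcium, differed among themselves: 1 rose, 2 fell and 1 did not pass. Nfatc4 rose by 0.32 ± 0.03 on the log2 scale (adjusted p = 8.81e-07), Nfatc1 fell by 0.36 ± 0.07 (adjusted p = 0.0012), and Nfatc2 fell by 2.06 ± 0.22 (adjusted p = 3.08e-06). Nfatc2 had 2.16, 2.30 and 2.097 CPM in control and 0.4999, 0.543 and 0.498 CPM in high glucose, so its groups were far apart at a low level. Nfatc3 had a value of 0.01 ± 0.03 (adjusted p = 0.894), which became 0.12 (adjusted p = 0.00162) without the deposited scaling factors.

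Of 19 genes known to act on NFAT5 (kinases, scaffolds, partners and transport factors), 5 were higher, 7 lower and 7 missed the threshold. Their median was 0.00. Map2k6, a kinase that activates p38, rose 2.14-fold, from 1.79 to 2.01 CPM in control to 3.99 to 4.20 CPM in high glucose (1.10 ± 0.14, adjusted p = 1.68e-05). The other 3 named genes of the list fell by less: Xpot, a nuclear export factor (-0.52 ± 0.03), Akap13, a guanine nucleotide exchange factor also called Brx that was described as a link between osmotic stress and Nfat5 (-0.31 ± 0.02), and Ccm2, a scaffold for osmotic p38 signalling (-0.29 ± 0.05). The shares called in each direction, 26.3% higher and 36.8% lower, stood beside 24.9% and 25.5% of all genes. Without the deposited scaling factors the count that was higher became 9.

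Taurine is a major organic osmolyte of nerve tissue, and Slc6a6 (TauT, ENSRNOG00000009019) carries it into the cell. Slc6a6 had 95.05, 94.61 and 90.27 CPM in control and 108.8, 112.3 and 111.6 CPM in high glucose. The groups did not overlap, and the rise was small: 1.19-fold, from 93.3 ± 2.64 to 110.9 ± 1.83 CPM (0.25 ± 0.03, adjusted p = 9.3e-06). Its fold change lay at the 70.7th percentile of all genes.

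Slc6a12 (BGT1, ENSRNOG00000013547) carries betaine and GABA and takes its place among the best known targets of NFAT5 in kidney cells. It was scarce in these cultures. The controls had 0, 6 and 4 reads and the high-glucose samples 32, 40 and 19 reads, or 0, 0.194 and 0.135 CPM against 1.07, 1.28 and 0.557 CPM. Every high-glucose sample was above every control, with high glucose 3 the lowest of its group. Over the groups this was 10 reads against 91, 8.41 times as many per scaled library, where counting error alone gives an exact 95% interval from 4.37 to 18.1. The fitted log2 fold change of 3.48 ± 0.76 (adjusted p = 0.00168) depends on the 0.5 read added to each count. It was 2.38 without control 1, which had no read, 4.15 without control 2, and 2.65 with 2 reads added. The gene lay below the level that 2 of the alternatives require and is absent from them.

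Slc38a2 (SNAT2, ENSRNOG00000006305) imports small neutral amino acids, which serve as osmolytes early in the response to high osmolarity. It had 626.1, 612.4 and 629.6 CPM in control and 926.5, 899.8 and 918.1 CPM in high glucose. The groups were far apart, with means of 622.7 ± 9.06 and 914.8 ± 13.7 CPM, a rise of 1.47-fold (0.55 ± 0.02, adjusted p = 3.26e-11). Slc38a2 is also known as a gene that cells raise when amino acids are short. Of 11 other genes of that amino acid response, 0 rose and 11 fell, with a median of -0.98, while 25.5% of all genes fell. Psat1, named after its values were seen, fell by 0.17 ± 0.03, a call lost without the scaling factors (adjusted p = 0.111). Trib3, a stress-induced pseudokinase, fell most (-2.08 ± 0.06), from 73.3 to 78.2 CPM in control to 16.3 to 19.4 CPM. The transporter subunits Slc7a5 (-1.30 ± 0.03) and Slc7a11 (-1.02 ± 0.03) and the serine synthesis enzyme Phgdh (-0.998 ± 0.033) fell as well. Whether amino acid supply plays a part in the rise of Slc38a2 was not tested.

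The promoter windows of these genes were searched for the element NFAT5 binds, and 3 are shown: the 1 that holds it, and those of Aqp1 and Slc6a12 as examples of the windows that do not. RefSeq windows of the assembly GRCr8 run from 250 bases before to 50 after an annotated start. They were found for 7 of the 9 genes (9 windows, 3 of them for Sgk1), but not for Nfat5 and Akr1b1. GRCr8 is not the build the reads were counted on (Rnor_6.0), so these positions are not those of the counting. The search covered both strands for TGGAAA, the core, and for the longer TonE consensus, which contains that core. The 250 upstream bases are printed 5′ to 3′ on the strand of the gene, with a TonE match in capitals. They come from chr4:125752252-125752501 (Slc6a6), chr4:85812534-85812783 (Aqp1) and chr4:156257268-156257517 (Slc6a12), all on the plus strand.
Slc6a6: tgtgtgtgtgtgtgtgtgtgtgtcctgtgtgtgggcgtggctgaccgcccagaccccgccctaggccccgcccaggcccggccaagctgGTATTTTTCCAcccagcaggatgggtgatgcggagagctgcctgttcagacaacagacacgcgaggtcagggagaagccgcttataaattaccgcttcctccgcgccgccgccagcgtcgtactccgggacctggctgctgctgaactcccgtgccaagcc
Aqp1: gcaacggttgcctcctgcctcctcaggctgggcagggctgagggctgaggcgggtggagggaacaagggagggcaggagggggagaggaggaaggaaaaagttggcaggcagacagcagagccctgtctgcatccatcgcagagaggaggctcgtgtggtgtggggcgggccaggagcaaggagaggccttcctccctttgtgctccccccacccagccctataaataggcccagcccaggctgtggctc
Slc6a12: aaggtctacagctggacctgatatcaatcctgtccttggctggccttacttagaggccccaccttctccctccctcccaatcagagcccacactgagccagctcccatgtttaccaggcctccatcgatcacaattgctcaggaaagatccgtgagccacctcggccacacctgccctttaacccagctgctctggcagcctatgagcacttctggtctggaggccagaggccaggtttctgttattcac
The capitals in Slc6a6 are bases -161 to -151 from the start, where the consensus reads on the antisense strand. TonE was found in 1 of the 9 windows, and in 5.98% of all 33469 windows of the table. TGGAAA was found in 3 of the 9 (Slc6a6 and 2 of the Sgk1 windows), and in 22.7% of all windows. The windows of Aqp1, Slc6a12, Slc38a2, Hspa4l, Sord and Sgk1 held no TonE match. A match is a run of letters and not a site shown to be bound.

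Relatives of the transporters were read alongside. Of 9 measured genes of the SLC6 family other than those 2, 5 (55.6%) were higher and 2 (22.2%) lower, beside 24.9% and 25.5% of all genes. Slc6a16, an orphan carrier, rose by 1.72 ± 0.43 (16 reads against 63, adjusted p = 0.00417). Slc6a8, the creatine transporter, fell by 0.58 ± 0.04, and Slc6a17, a vesicular amino acid carrier, fell by 0.91 ± 0.13. The calls of Slc6a2 (1.12 ± 0.39) and Slc6a5 (1 read against 11, or 10.2 times as many per scaled library, where the exact 95% interval for counting runs from 1.48 to 438) rested on few reads. The count of 5 fell to 3 without control 2 or after quantile normalization. It was 2 without control 3, high glucose 2 or high glucose 3. With either filter on low genes it was 1, as these filters remove Slc6a2, Slc6a5, Slc6a16 and other scarce genes. Of 10 other SLC38 genes, 5 (50.0%) were higher and 2 (20.0%) lower. Slc38a4, another importer of small neutral amino acids, rose 4.59-fold, from 17.7, 18.4 and 18.3 CPM to 82.5, 85.0 and 82.2 CPM (2.20 ± 0.04, adjusted p = 6.16e-14), a larger fold than that of Slc38a2. Slc38a3 had a value of 1.32 ± 0.48 and lost its call without control 3 or any 1 high-glucose sample. Slc38a1 (-0.54 ± 0.07) and Slc38a7 (-0.46 ± 0.04) fell.

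Transport is one way to gain osmolytes, and making them is the other. Of 13 measured genes of osmolyte synthesis and breakdown, 6 (46.2%) were higher and 3 (23.1%) lower, beside 24.9% and 25.5% of all genes. The other 4 missed the threshold. The median was 0.45. Cdo1, which starts taurine synthesis from cysteine, had 7.96, 7.44 and 7.31 CPM in control and 27.6, 28.2 and 26.8 CPM in high glucose. Its groups were widely apart, a rise of 3.63-fold (1.86 ± 0.06, adjusted p = 2.57e-11) against the 1.19-fold of the taurine carrier Slc6a6. Csad, the next enzyme to taurine, named after its values were seen, rose by 0.45 ± 0.07 (adjusted p = 0.000159).

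Isyna1, which makes the precursor of myo-inositol from glucose 6-phosphate, rose 2.34-fold, from 4.39, 4.30 and 4.47 CPM to 10.3, 10.5 and 10.1 CPM (1.23 ± 0.09, adjusted p = 5.11e-08). Chdh, which oxidises choline on the way to betaine, rose 2.60-fold, from 1.17 to 1.83 CPM in control to 3.35 to 4.03 CPM (1.38 ± 0.19, adjusted p = 3.94e-05). Aldh7a1, an enzyme of the next step to betaine that was named after its values were seen, fell by 0.17 ± 0.03 (adjusted p = 0.000163), a call lost without the scaling factors (adjusted p = 0.121). Glycerophosphocholine is released by Pnpla6 and broken down by Gpcpd1 and Gdpd5. Pnpla6 (neuropathy target esterase) rose 1.68-fold (0.75 ± 0.04), while Gpcpd1 (-0.38 ± 0.05) and Gdpd5 (-0.56 ± 0.08) fell, and none of these 3 genes had overlapping groups. Slc5a3, the myo-inositol carrier and a known NFAT5 target, was not measured in the mRNA table.

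**Figure D2:**
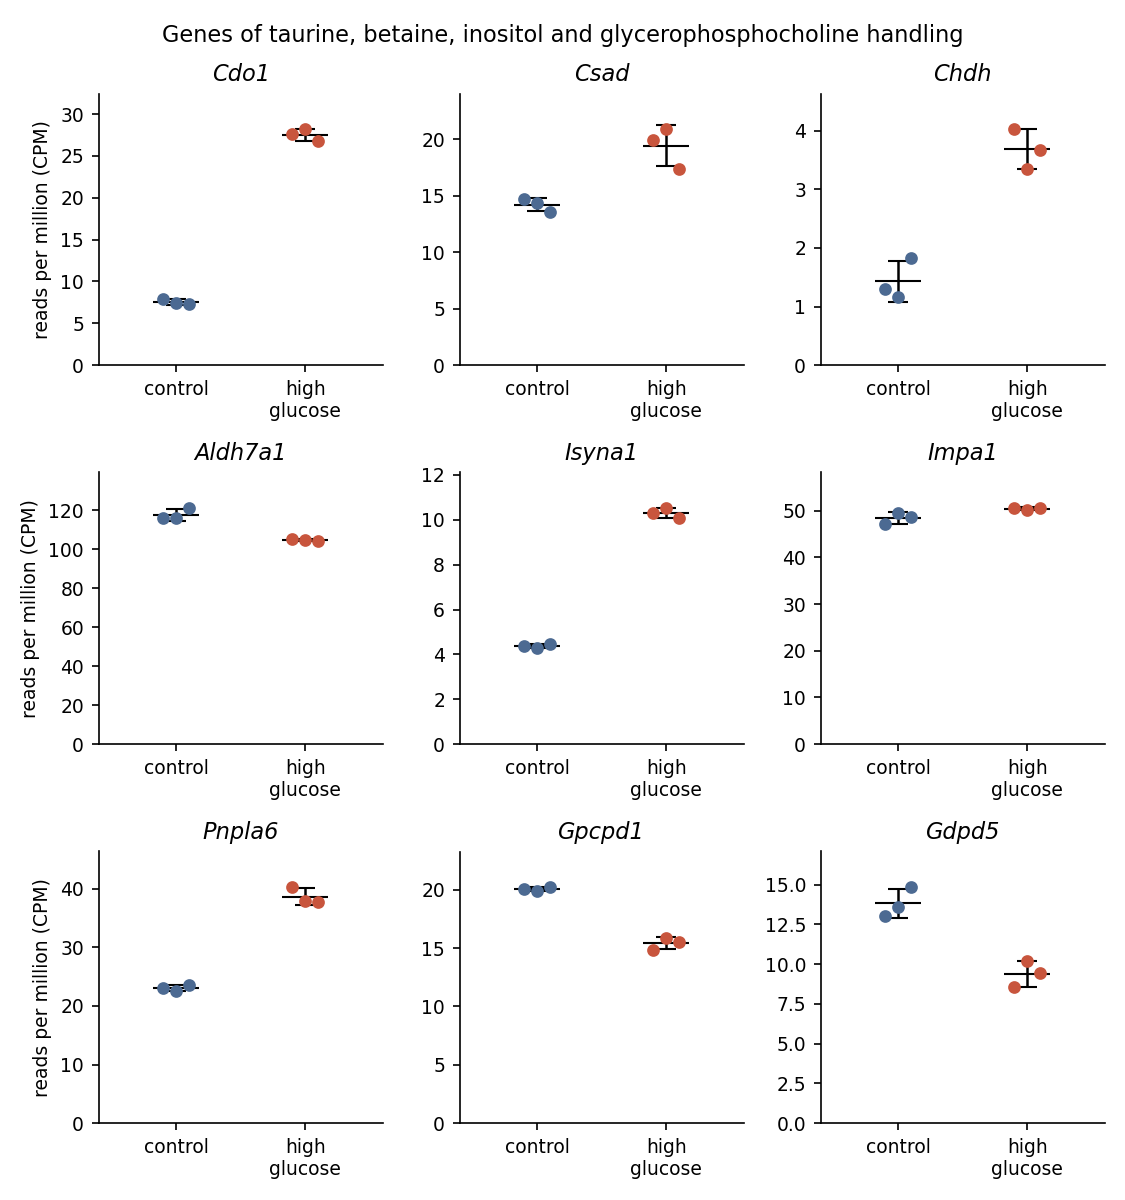
CPM (y axis, from 0, a scale of its own in each panel) of 9 genes that make, release or break down taurine, betaine, myo-inositol and glycerophosphocholine, in the 3 control and 3 high-glucose samples (x axis). Points are samples, the long bar the mean and the short bars 1 SD either side. Cdo1 goes from 7.57 to 27.5 CPM on average, and Gpcpd1 and Gdpd5 are lower in every high-glucose sample than in any control.

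Aqp1 (ENSRNOG00000011648) forms a channel through which water crosses the membrane along an osmotic gradient, and it had the largest fold change of the 9 genes after Slc6a12. Its 3 control samples had 212.9, 212.9 and 217.6 CPM and its 3 high-glucose samples 629.1, 636.5 and 618.9 CPM. The samples of a group lay close together and the groups far apart. The means were 214.5 ± 2.72 and 628.2 ± 8.88 CPM, a rise of 2.93-fold (1.55 ± 0.02, adjusted p = 3.92e-15), at the 96.8th percentile of all genes. The other aquaporins were scarce. Of 6 measured, Aqp4, the water channel of glia, was the 1 that passed, on 5 reads against 29 (2.52 ± 0.68, adjusted p = 0.00719). It moved to 1.71 without control 1 and to 1.66 with 2 reads added. Aqp2, a target of NFAT5 in kidney, was not measured in the mRNA table.

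**Figure D3:**
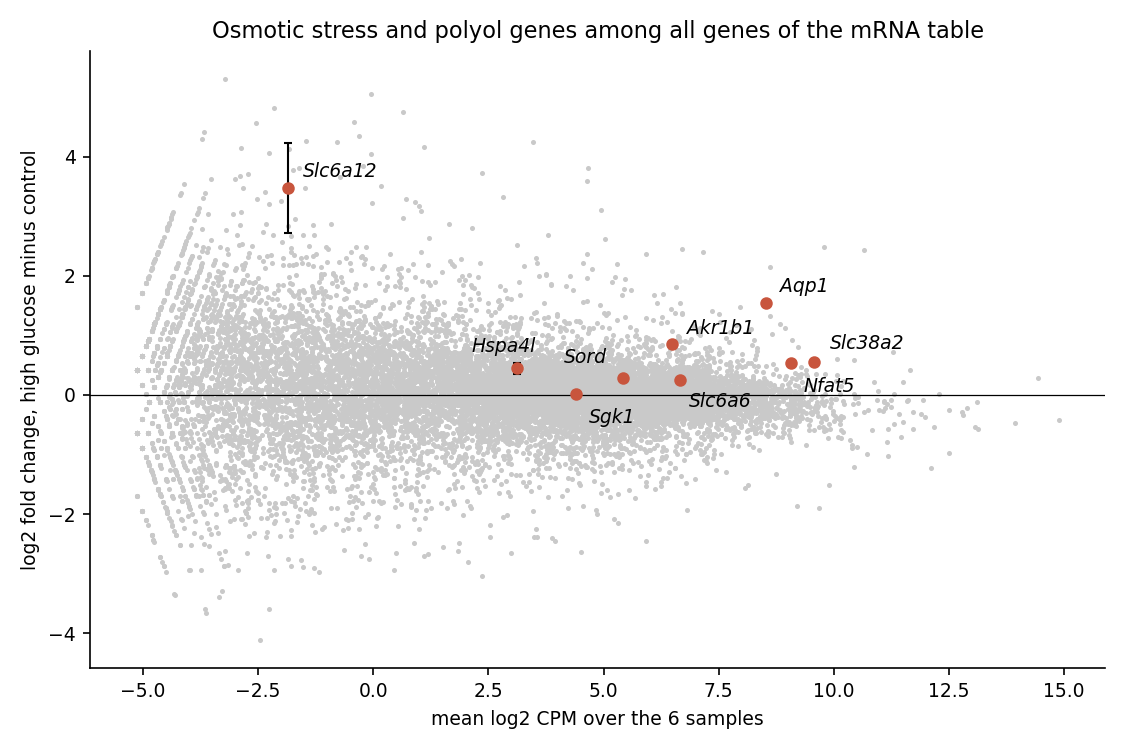
Log2 fold change (y axis, high glucose minus control) against mean log2 CPM over the 6 samples (x axis) for all 16551 genes in grey and the 9 genes in red, with bars of 1 SE. Aqp1 stands above nearly all genes of its abundance at 1.55, Sgk1 lies on the zero line, and Slc6a12 is far to the left with the widest error bar.

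The chaperone Hspa4l (Osp94, ENSRNOG00000010819), of the HSP110 family, was first found as a protein induced by high osmolarity in kidney. It had 7.85, 6.99 and 7.54 CPM in control and 9.66, 9.70 and 11.1 CPM in high glucose, on 657 and 974 reads. The groups did not overlap, and high glucose 3 was the highest. The rise was 1.36-fold, from 7.46 ± 0.44 to 10.2 ± 0.84 CPM (0.44 ± 0.09, adjusted p = 0.000786). None of the other 3 HSP110 genes passed as higher on the deposited scaling. Hspa4 (0.03 ± 0.02, adjusted p = 0.349) and Hsph1 (0.01 ± 0.03, adjusted p = 0.829) did not pass, and Hyou1, the family member of the endoplasmic reticulum, fell by 0.36 ± 0.02. Without the deposited scaling factors Hspa4 (0.14) and Hsph1 (0.12) passed as higher, as Hspa4 did after quantile normalization (0.10).

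Sgk1 (ENSRNOG00000011815), a kinase whose transcript rises quickly under osmotic stress and under glucocorticoids, was the gene that did not pass. It had 20.38, 20.58 and 22.36 CPM in control and 20.26, 21.16 and 22.60 CPM in high glucose, so the groups overlapped over nearly their whole range. The means were 21.1 ± 1.09 and 21.3 ± 1.18 CPM, and the log2 difference of 0.02 ± 0.06 had a 95% interval of -0.11 to 0.14 (adjusted p = 0.845). The interval holds for the deposited scaling: without the scaling factors the difference was 0.129 ± 0.058 (adjusted p = 0.0766). Among these samples 48 h is the only time. Sgk3, its measured relative, rose by 0.40 ± 0.09 (adjusted p = 0.00296).

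Of 10 measured genes around SGK1 (its activators and substrates), 6 were higher and 2 lower, beside 24.9% and 25.5% of all genes. The median was 0.32. Ndrg1, a substrate of SGK1 that hypoxia also induces, rose 2.39-fold, from 24.1 to 25.9 CPM in control to 59.3 to 61.2 CPM (1.26 ± 0.04, adjusted p = 2.09e-11). Rictor, a subunit of the activating complex mTORC2 (0.57 ± 0.03), Ndrg2 (0.58 ± 0.09) and Scnn1a, a sodium channel subunit (0.68 ± 0.19), rose too. Nedd4l, the ubiquitin ligase that SGK1 inhibits, fell by 0.35 ± 0.04. Pdpk1, which phosphorylates SGK1, fell by 0.14 ± 0.04, a call lost without control 2 or high glucose 2, without scaling factors and with a single variance prior. Transcript levels do not report on the activity of the kinase. Of 8 glucocorticoid-induced genes, 2 were higher and 3 lower, beside 24.9% and 25.5% of all genes, and 4 were higher without the scaling factors. Fkbp5 fell by 0.94 ± 0.06 and Tsc22d3 by 0.21 ± 0.04, Errfi1 rose by 0.65 ± 0.05 and Dusp1 by 0.11 ± 0.02, and the fall of Mt2A (-0.36 ± 0.12) lost its call without control 2, high glucose 1 or high glucose 3.

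Both enzymes of the polyol pathway rose. Akr1b1 (ENSRNOG00000009513), aldose reductase, had 64.84, 66.72 and 69.94 CPM in control and 121.2, 126.5 and 116.0 CPM in high glucose. The groups were far apart, with means of 67.2 ± 2.58 and 121.2 ± 5.25 CPM, a rise of 1.81-fold (0.85 ± 0.04, adjusted p = 4.64e-10) at the 90.7th percentile. Sord (ENSRNOG00000017291), sorbitol dehydrogenase, had 38.81, 38.21 and 38.83 CPM in control and 46.42, 47.91 and 46.88 CPM in high glucose. Its groups did not overlap either, but the step was smaller: 1.22-fold, from 38.6 ± 0.35 to 47.1 ± 0.76 CPM (0.29 ± 0.04, adjusted p = 1.45e-05). The intervals of the log2 fold changes, 0.77 to 0.93 for Akr1b1 and 0.21 to 0.36 for Sord, did not overlap. The difference between the 2 genes was not tested. Metabolites were not measured.

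Of 13 other measured genes of the polyol and fructose pathways, 5 (38.5%) were higher and 2 (15.4%) lower, beside 24.9% and 25.5% of all genes. The other 6 missed the threshold. The median was 0.29. Akr1b10, a close relative of aldose reductase that favours other aldehydes, fell 1.95-fold, from 6.05, 7.60 and 6.49 CPM to 3.03, 3.70 and 3.58 CPM (-0.96 ± 0.13, adjusted p = 2.38e-05). The Akr1b genes are similar in sequence and the counting could split their reads, which was not tested. Dcxr, a reductase of sugars of the xylulose route, rose 1.52-fold (0.60 ± 0.07, adjusted p = 6.8e-06). Khk, ketohexokinase, which traps fructose, rose by 0.58 ± 0.15, and Tkfc, which acts further down the fructose route, by 0.29 ± 0.08. Aldoc had a value of 0.30 ± 0.10, and its groups overlapped. Its call was lost after quantile normalization, with a single variance prior and in 4 of the 6 fits that left out 1 sample (adjusted p up to 0.147). These 3 were named after their values were seen. Slc2a5, the fructose carrier GLUT5, had 12 reads against 33 (1.31 ± 0.45, adjusted p = 0.0275) and lost its call in 5 of the 6 fits that left out 1 sample. Aldoa, the aldolase of glycolysis, fell by 0.63 ± 0.02. The count of 5 became 3 without high glucose 1 or high glucose 3. Of 3 genes that handle glycation or its products (Glo1, Hagh and Ager), 0 passed by limma and 0 had an unadjusted p under 0.05. Ager, with the lowest adjusted p of 0.122, had a value of -0.26 ± 0.13 and passed as lower after quantile normalization (adjusted p = 0.0326). Glo1 had a value of 0.02 ± 0.03 and passed as higher without the scaling factors (adjusted p = 0.0033).

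A wider list of genes that other cells raise under high osmolarity was mixed. Of 20 measured, 10 (50.0%) were higher and 6 (30.0%) lower, beside 24.9% and 25.5% of all genes. The other 4 missed the threshold. The median was 0.18. The largest rises were in genes of ion and urea transport and in a chemokine. Fxyd2, a regulatory subunit of the sodium pump that kidney cells raise in hypertonic medium, went from 28 to 776 reads over the groups (4.76 ± 0.35). Atp1b1, the beta subunit of the same pump, had 42.2, 44.1 and 43.5 CPM in control and 140.9, 137.6 and 139.9 CPM in high glucose, a rise of 3.22-fold (1.69 ± 0.03, adjusted p = 7.51e-14).

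Slc14a2, the urea transporter that NFAT5 controls in kidney, had 27 reads against 157 (2.40 ± 0.30, adjusted p = 1.41e-05), and a second row of that symbol had 9 against 70 (2.67 ± 0.41, adjusted p = 0.000111). Ccl2, the chemokine MCP-1, rose 4.02-fold, from 6.34 to 6.91 CPM in control to 25.8 to 27.6 CPM (2.01 ± 0.06, adjusted p = 1.92e-11). Of the 6 that fell, 2 are named by the rule. Acan, the proteoglycan aggrecan, fell 2.62-fold, from 129.9 to 137.8 CPM to 49.7 to 53.2 CPM (-1.39 ± 0.03), and Ptgs2, the cyclooxygenase COX-2, fell 1.87-fold (-0.90 ± 0.04). The inducible HSP70 genes Hspa1a and Hspa1b are near-identical, so reads cannot be assigned to either with certainty. The 3 heat shock genes named here were chosen after their values were seen: Hspa1b rose by 0.52 ± 0.09, Hspa1a had a value of -0.64 ± 0.63 on 37 and 18 reads (adjusted p = 0.432), and Hspb1 fell by 0.71 ± 0.04.

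A row named Tnxb, after the tenascin X gene that NFAT5 is known to raise, stood in the separate lncRNA table of 1012 rows, in which 5.53% of rows were higher. It had 55.6, 63.1 and 60.5 CPM in control and 258.6, 263.4 and 265.9 CPM in high glucose, on the scale of that table only, with 71 and 383 reads. The groups were far apart, a rise of 4.33-fold (2.11 ± 0.16, adjusted p = 2.82e-07). The table does not say which transcript of the locus the row counts.

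**Figure D4:**
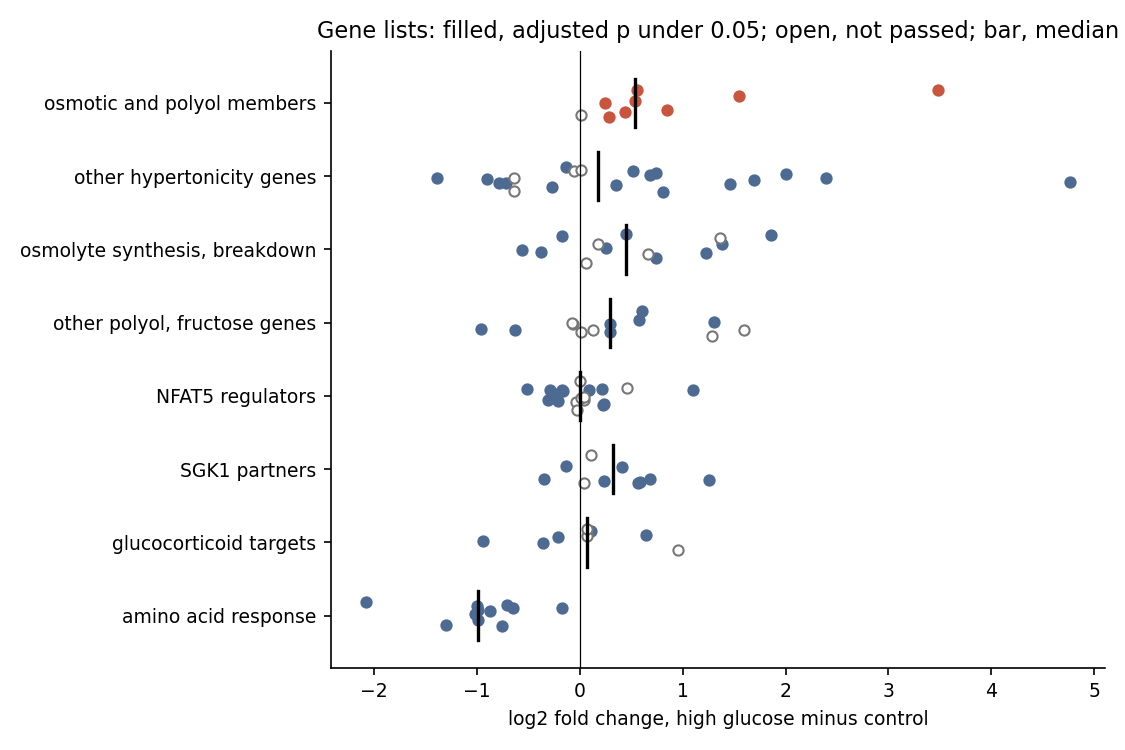
Log2 fold change (x axis, high glucose minus control) of each measured gene of the 9 genes (red) and of 7 other lists (blue). Filled points passed limma at an adjusted p under 0.05, open points did not, and the vertical bar is the median of the list. The median is 0.54 for the 9 genes, 0.18 for other hypertonicity genes and -0.98 for the amino acid response, where all 11 points are filled and below 0.

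Over all 128 pathway and family genes beside the 9, 46 were higher and 41 lower, and the other 41 missed the threshold. The median was 0.07. The share that was higher, 35.9%, was nearer to the 24.9% of all genes than the 8 of 9 counted above. The share that was lower was 32.0%, beside 25.5% of all genes. This is a description of the lists, with no test.

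Genes with nearly the same profile over the 6 samples were looked up for 3 of the 9, by the Euclidean distance between log2 values less each gene's mean, among 12246 genes whose log2 values averaged 0 or more. Nearest to Aqp1 were C1qtnf3 (distance 0.058, 2.93-fold), Tm4sf1 (0.060) and Ptgs1 (0.0998). Nearest to Nfat5 were Aldh6a1 (0.0242, 1.45-fold), Fas (0.0303) and Atxn7l2 (0.0317), and nearest to Akr1b1 were Mxd4 (0.0574, 1.79-fold), Ebp (0.0649) and Rilpl2 (0.0937). Fold changes of like size follow from this choice.

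The cultures were mixed, and markers of several cell types moved in the same comparison. The labels call the cells nerve cells. For the counts below, the shares of all genes were 24.9% higher and 25.5% lower. The summed level of 18 neuronal markers was 112 to 117 CPM in control and 64.1 to 65.9 CPM in high glucose, with 0 higher and 12 lower. Most of the sum came from Uchl1 (58.8 CPM in control) and Tubb3 (23.1 CPM). With either filter on low genes, which removes the scarce markers, the count that was lower became 5. Tac1 had 7 reads in control and 0 in high glucose. The summed level of 7 measured fibroblast markers was 56400 to 58600 and 51800 to 54400 CPM (4 higher, 2 lower). Col1a1 (34810 and 26170 CPM) and Postn fell, while Col3a1 (20020 and 24280 CPM), Pdgfra, Dcn and Lum rose. Markers of Schwann cells went from 962 to 1000 CPM in control to 549 to 591 CPM (0 of 12 higher, 10 lower). Those of mural cells went from 14800 to 14900 to 8310 to 8380 CPM (1 of 8 higher, 6 lower). Most of the mural sum came from Acta2 (6734 and 2868 CPM) and Tagln (5615 and 3857 CPM), which fell, while Notch3 rose and Pdgfrb did not pass. The sum of 6 satellite glia markers was 77.1 to 79.8 and 130 to 141 CPM, carried by Glul (50.9 and 95.4 CPM) and Slc1a3 (15.4 and 28.7 CPM), which rose, while Fabp7 and Cadm2 fell and the other 2 did not pass. Sums of 9 macrophage markers were 22 to 23 and 27.8 to 28.8 CPM (2 higher, 4 lower). The higher sum was carried by Cd14 (10.2 and 15.8 CPM) and Csf1r (3.4 and 5.5 CPM), which rose, while Adgre1, Cx3cr1, C1qa and C1qb fell. The sum of 5 measured endothelial markers, which share Aqp1 with other cells, was 57.9 to 61.6 and 56.1 to 58.7 CPM. Of the 5, 0 passed by limma (2 at an unadjusted p under 0.05, 1 higher and 1 lower). Nearly all of that sum came from Flt1 (44.4 and 41.5 CPM) and Tek (14.8 CPM in both groups). Cdh5 (18 and 12 reads), Kdr (5 and 11 reads) and Vwf (15 and 44 reads) were scarce. The sum of 3 measured erythroid markers was 4.00 to 5.04 and 5.01 to 5.80 CPM (1 higher, 0 lower). Most of the sum came from Alas2 (4.20 and 3.43 CPM), which did not pass. The 1 that rose was Epb42, with 35 reads against 179 (2.34 ± 0.38, adjusted p = 0.000161 by limma). The globin genes Hbb and Hba1 of red cells, which hold much Aqp1, were not measured. In bulk RNA a smaller number of cells of a type and less RNA per cell cannot be told apart. The part that these shifts play in the changes of the 9 genes was not tested.

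**Figure D5:**
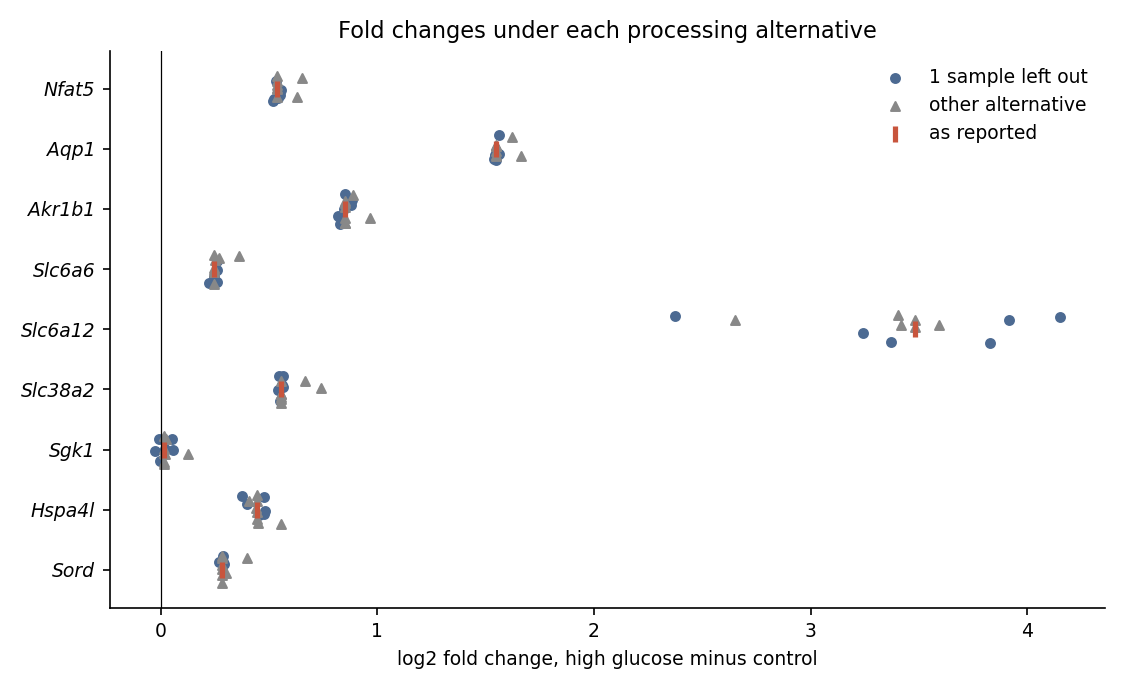
Log2 fold change (x axis, high glucose minus control) of each of the 9 genes (y axis) as reported (red bar), in the 6 fits that leave out 1 sample (blue circles) and in the other alternatives (grey triangles). Of the 9, 8 stay above 0 throughout, Slc6a12 ranges from 2.38 to 4.15, and Sgk1 lies within -0.03 to 0.13.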

How the data were processed

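Total RNA of 3 control and 3 high-glucose samples was sequenced. Per the submitters' processing notes, the build was Rnor_6.0 and the tools named are HISAT2 2.1.0, featureCounts 1.6.0 and fastp 0.19.4; the strand of counting and the annotation are not given in the sources used here, so overlapping antisense genes may share reads. The labels' growth protocol mentions fixation, and whether it applied to the sequenced cells is not given. The authors deposited log2 values, voom-normalized per the file names, of the form log2 CPM with 0.5 read added, for an mRNA and a separately scaled lncRNA table. Whole reads were recovered from them (100% of values within 0.01 of a whole read) and gave the CPM and read counts. The scaling factors of the groups did not overlap (control 0.959 to 0.964, high glucose 1.03 to 1.05), so small changes depend on them.

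limma 3.58.1 (R 4.3.3) was fitted to the deposited log2 values of whole tables with group as its term and a mean-variance trend, two-sided, and was tested on simulated data. Fold changes are ratios of fitted log2 means, which for scarce genes can lie above or below the ratio of reads. Intervals of read ratios are exact at 95% and cover counting error only. Every pair of samples differed beyond sampling noise (mean chi-square per gene 2.91 to 4.62 within groups, 82.2 to 88.6 between). This cannot tell separate cultures from technical repeats. Each sample was entered as 1 replicate. Where a symbol stood on several rows (105 symbols), the one of highest mean was taken. The members and lists were chosen with earlier results of these data known. Named are all 9 members and, per list, up to 4 passing genes with the largest change plus up to 2 in the other direction, every measured NFAT, SGK and HSP110 relative, and exceptions as said; 1 list gene is not reported here. The alternatives were quantile normalization, no scaling factors, 2 reads added, 2 filters on low genes, a single variance prior, voom weights, a replicate block and leaving out each sample. Sequences are from RefSeq (GRCr8). Figures used matplotlib 3.10.9 in Python 3.11.15.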

Additional observations from a re-analysis of the deposited data

How the results depend on the processing

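Over 14 alternatives, 8 of the 9 genes kept their direction and call in every alternative that held them (12 for Slc6a12, which both filters on low genes remove). Their highest adjusted p was 0.0492, for Slc6a12 with a single variance prior. Sgk1 never passed (adjusted p from 0.0766 to 0.988), and its log2 fold change changed sign when 1 sample was left out, with values from -0.026 to 0.058 (-0.009 without control 1, -0.002 without control 2, -0.026 without high glucose 3). Nfatc3 did so too (-0.003 without control 3, -0.015 without high glucose 3, up to 0.019 without high glucose 1), as did Hsph1 (-0.006 without control 1, -0.017 without high glucose 1, up to 0.027 without high glucose 3). None of these 3 was called in those fits. Of 87 called genes of the other lists, 13 lost the call in some alternative and 0 changed sign. Leaving out the scaling factors moved the median of all genes by 0.114 and the split of all calls from 4126 higher and 4228 lower to 5932 higher and 2847 lower (67.6% higher in place of 49.4%), while 8 of the 9 genes stayed higher. Replicate numbers did not pair the samples: deviations of same-numbered samples correlated at -0.0921, -0.0433 and 0.0255. The fit with a replicate block gave 3968 genes higher and 4084 lower, 8 and 0 of the 9 genes, and 45 and 41 of the list genes. Depth limits Slc6a12, Slc2a5, Slc6a5, Aqp4, Slc6a16, Slc6a2, Slc38a3 and Hspa1a, among others, each with under 100 reads per group.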

Other observations

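Map2k3, a kinase upstream of p38 that was singled out after its values were seen, had 21.2, 7.31 and 16.1 CPM in control and 28.2, 6.45 and 36.1 CPM in high glucose, so the sample numbered 2 was the lowest of both groups. Its log2 fold change of 0.46 ± 0.51 did not pass in limma (adjusted p = 0.482). Over the alternatives the value ran from -0.01 without high glucose 3 to 1.23 without high glucose 2, where it passed (adjusted p = 0.00415), and the replicate block gave an adjusted p of 0.053.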
